A study of Homo sapiens with 8 samples.

Results

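The genes described here, apart from PDE2A, have been published as targets of miR-139-5p. They are the receptors IGF1R, NOTCH1 and CXCR4, the kinase ROCK2, the small GTPase RAP1B, the homeobox factor HOXA9, and the survival proteins BCL2 and MCL1. PDE2A, whose gene contains the miRNA, was included as its host gene and is counted among the target genes below. A probe belonged to the set when the array annotation gave it one of these gene names and it was not a control. All 9 genes were on the array, with 16 probes of 58201 probes in all (9 of 41810 gene names). No measured value entered this rule, but the genes were chosen with earlier results of these data known.

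A total of 8 two-colour oligonucleotide arrays were hybridised, each comparing transfected cells in the red channel (Cy5) with mock cells of the same line in the green channel (Cy3). Mature miR-139-5p and mature miR-139-3p were each transfected into A498 and into 786-O, both established renal cancer cell lines, on 1 array per strand and line. The other 4 arrays held MDA-MB-231 breast cancer cells with siRNA 1 or siRNA 2 against GINS1, and HCT116 colorectal cancer cells with miR-490-5p or miR-490-3p. RNAiMAX was the transfection reagent on every array. The labels call the green sample mock and also untransfected, so whether those cells received the reagent is not settled, and no control oligonucleotide was hybridised. No time after transfection or number of cultures was given, dyes were not swapped, and both arrays of a line may share 1 mock extract. A498 and 786-O served as replicates 1 and 2 of each strand, so no p-value below measures the spread between cultures under 1 condition. The spread behind each p-value pools the gaps between the renal lines with the gap between the siRNAs in MDA-MB-231. That last gap can be the larger part, or close to none where a probe has no signal in MDA-MB-231.

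Each array had 62976 spots, with 24983 to 29687 probes well above background in at least 1 channel and no saturated spot of the target genes. In the mock cells the kidney lineage factors PAX8 and PAX2 were well above background in both renal lines, but not only there. PAX8 had a log2 Cy3 level of 8.03 to 8.20 in the renal lines and of 6.29 to 6.73 in MDA-MB-231 and HCT116. PAX2 stood at 7.80 to 8.42 in the renal lines and at 6.84 and 6.92 in HCT116. NDUFA4L2 was not above background in any line, and CA9 was above it in 1 of the 8 Cy3 channels. EPCAM was at 11.67 and 11.72 (log2 Cy3 level) in HCT116 and CDH1 at 9.10 and 9.20, and the epithelial marker VIL1 was not above background there. The mesenchymal markers VIM (14.57 to 15.12) and ZEB1 (8.18 to 9.03) were as high in the renal lines as in MDA-MB-231 or near it. In HCT116 VIM stood at 6.75 and 6.78 and ZEB1 at 6.37 and 6.40. GINS1 had log2 ratios of -1.31 and -1.92 with the 2 siRNAs and of -0.11 to 0.55 on the other 6 arrays. The array carries no probe for a mature miRNA that was used here, so the dose of miR-139 that reached the cells was not measured.

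A miRNA is cut from a hairpin precursor as a duplex, and either strand can be loaded into an Argonaute protein. The loaded strand pairs with target mRNAs mainly through its seed, bases 2 to 8, most often in the 3′ untranslated region, and pairing lowers the amount of the mRNA, its translation or both. An array of mRNA probes measures the amount and not the translation. miR-139-5p is known as a miRNA with reduced levels in many carcinomas, and both strands come from an intron of PDE2A, a phosphodiesterase gene. The sequences below, from RefSeq on GRCh38.p14, show that the strands compared have different seeds, given in capitals, and so pair with different sites. Whether an mRNA holds sites for both strands was not searched. The precursor lies at chr11:72615063-72615130 on the minus strand.
hsa-miR-139-5p: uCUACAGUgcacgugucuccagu
hsa-miR-139-3p: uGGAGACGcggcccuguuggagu

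The precursor is 68 bases long and holds the 5p strand at bases 7 to 29 and the 3p strand at bases 43 to 65, both in capitals here because each was transfected on its own.
hairpin: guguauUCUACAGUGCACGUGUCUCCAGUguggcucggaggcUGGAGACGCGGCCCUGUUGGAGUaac

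HOXA9 was the target gene with lower values after miR-139-5p than after miR-139-3p at every probe and in both renal lines, and CXCR4, in A498, had the opposite pattern at a similar size. None of the target genes passed the test across all probes in any of the 3 comparisons. limma called 3 of 23282 probes for miR-139-5p against mock (0.0129%), 0 of 22806 for miR-139-3p against mock (0%) and 0 of 22174 for miR-139-5p minus miR-139-3p (0%), at an adjusted p of 0.05, and 0 of the 13 target gene probes tested in that last contrast were among them. At an unadjusted p under 0.05 the counts were 593, 1012 and 151 probes (2.55%, 4.44% and 0.681%). The 3 calls against mock became 0 when either miR-139-5p array was left out. The probes with an unadjusted p under 0.05 held 3, 1 and 4 probes of the target genes, and all of these were HOXA9 probes.

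**Figure D1:**
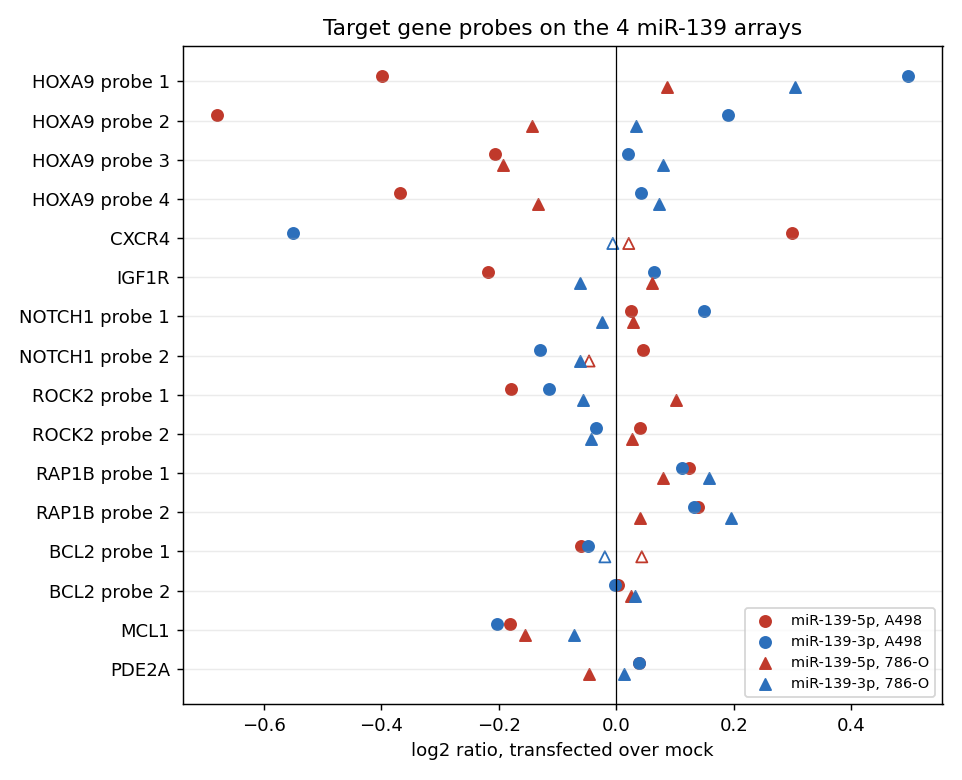
Log2 ratio of transfected over mock cells (x axis) for each of the 16 probes of the target genes on the 4 miR-139 arrays, 1 point per array; circles are A498, triangles 786-O, red miR-139-5p, blue miR-139-3p, and open points were not well above background in either channel. All 4 HOXA9 probes have both red points to the left of both blue ones, and CXCR4 in A498 has its red point at 0.30 and its blue point at -0.55.

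HOXA9 encodes a homeobox transcription factor of the HOXA cluster, known for its roles in haematopoiesis and leukaemia. Its 4 probes (NM_152739, hg19, minus strand) are numbered by brightness and lie at chr7:27202588-27202647, chr7:27202258-27202317, chr7:27203145-27203204 and chr7:27203345-27203404. The array annotation names the same 2 RefSeq transcripts for all of them, 1 of these non-coding, and the probes cannot tell them apart. Whether a probe falls in coding or untranslated sequence is not given in the sources used here.

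HOXA9 probe 1, the brightest, had log2 ratios to mock of -0.40 after miR-139-5p and 0.50 after miR-139-3p in A498, and of 0.087 and 0.30 in 786-O. Probe 2 had -0.68 and 0.19 in A498, and -0.14 and 0.034 in 786-O. Both probes therefore lay lower with the 5p strand in each line, by a wider margin in A498. Probe 3 had -0.21 and 0.019 in A498, and -0.19 and 0.080 in 786-O. Probe 4 had -0.37 and 0.043 in A498, and -0.13 and 0.074 in 786-O. For all 4 probes neither miR-139-5p value overlapped the miR-139-3p values. The same was true of 3797 of the 22174 probes tested (17.1%), and the 4 HOXA9 probes read 1 gene.

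The difference of the strands for HOXA9 (miR-139-5p minus miR-139-3p, log2) was -0.90 in A498 and -0.22 in 786-O at probe 1, -0.87 and -0.18 at probe 2, -0.23 and -0.27 at probe 3, and -0.41 and -0.21 at probe 4. Probes 1 and 2 thus gave a larger difference in A498, while probe 3 gave about the same in both lines. In limma the mean difference was -0.56 at probe 1 (SE 0.18, 95% interval -1.02 to -0.094), -0.52 at probe 2 (SE 0.19, -1.01 to -0.037), -0.25 at probe 3 (SE 0.075, -0.44 to -0.059) and -0.31 at probe 4 (SE 0.10, -0.57 to -0.046). Unadjusted p lay between 0.020 and 0.040, and the limma adjusted p was 0.9999 at each probe. HOXA9 therefore did not pass the test after adjustment over 22174 probes. Probes 1, 2 and 4 were not above background in MDA-MB-231, where their siRNA ratios lay between -0.043 and 0.054. That line thus added almost no spread, and the limma intervals and p-values of these probes can be too narrow. Without the A498 array of miR-139-5p the mean at probe 1 was -0.31.

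The share of this difference that came from each strand varied between probes. Against mock, miR-139-5p gave a mean log2 ratio of -0.16 at probe 1 (limma, unadjusted p = 0.28), -0.41 at probe 2 (0.028), -0.20 at probe 3 (0.011) and -0.25 at probe 4 (0.017), with an adjusted p of 0.9999 throughout. miR-139-3p against mock gave 0.40 at probe 1 (unadjusted p = 0.025). At the brightest probe, then, the larger mean deviation from mock belonged to the 3p arrays, and at the other 3 it belonged to the 5p arrays. With median centring in place of loess, the mean further from 0 was also that of the 3p arrays at probe 2 (-0.23 for 5p, 0.28 for 3p) and probe 3 (-0.094 and 0.14). On that scale the median of all genes was 0.14 (A498) and -0.0014 (786-O) on the 5p arrays. It was 0.042 and 0.072 on the 3p arrays. This order is thus counted from 0 and not from the median of all genes. In A498 with miR-139-5p, median centring moved the median of all genes to 0.14, and HOXA9 probe 1 then stood at -0.001 and probe 3 at 0.020 on that scale, both below the median. The mean ratio of probe 1 over the lines was then 0.051, so its sign against 0 depended on the scaling, and 0 was not the typical gene in A498. The difference of the strands stayed below 0 at all 4 probes in both lines. With the scanner's own log ratios it ran from -0.38 to -0.99 in A498 and from -0.19 to -0.39 in 786-O. With median centring it ran from -0.069 to -0.66 in A498 and from -0.34 to -0.42 in 786-O.

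In mock cells HOXA9 was high in 3 of the 4 lines. The log2 Cy3 level of probe 1 was 10.61 and 10.48 in 786-O, 10.33 and 10.34 in HCT116, and 10.21 and 10.23 in A498. In MDA-MB-231 it was not well above background, so that the level was at least 21.1-fold higher in A498, at least 26.6-fold higher in 786-O and at least 22.9-fold higher in HCT116. Each bound sets the mean of the brighter line against the lowest signal well above background in MDA-MB-231. Probe 3 was above background in MDA-MB-231 and stood 2.08-fold higher in 786-O than there. In HCT116, miR-490-3p gave HOXA9 ratios of -0.16, -0.13, -0.33 and -0.42 at probes 1 to 4, and miR-490-5p gave 0.10, 0.28, -0.094 and -0.36.

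CXCR4, the receptor of the chemokine CXCL12, guides cell migration and homing. Its probe (NM_001008540, chr2:136871953-136872012, hg19, minus strand) was printed in 10 spots. In A498 the log2 ratio was 0.30 after miR-139-5p and -0.55 after miR-139-3p, a difference of 0.85. The spots agreed closely: they ran from 0.24 to 0.34 on the 5p array (mean 0.30 ± 0.035, SD, 10 spots) and from -0.63 to -0.50 on the 3p array (mean -0.56 ± 0.048, SD, 10 spots, 2 of them carrying an outlier mark and left out of the ratio above). Spots of 1 array share the labelled RNA, so this spread is that of the printing and not of cultures. The A498 difference was 0.90 with the scanner's log ratios and 1.15 with median centring.

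Of 19102 genes measured in A498, 374 (1.96%) had a difference of the strands at or above 0.5, and CXCR4 was the only target gene among them. In 786-O, where 13 of 18268 genes (0.0712%) were that high, no spot of CXCR4 was well above background in either channel, and its ratios of 0.021 and -0.0058 there have no level behind them. The same held for MDA-MB-231. CXCR4 could therefore not be tested across the lines, and its A498 difference rests on 1 array per strand. Its mock level was 11.67 and 11.504 in A498 and 6.13 and 6.12 in HCT116, a 44.0-fold gap. The level in A498 was at least 52.6-fold higher than in 786-O and at least 54.6-fold higher than in MDA-MB-231. In HCT116 miR-490-5p gave a ratio of 0.16 and miR-490-3p one of 0.36.

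**Figure D2:**
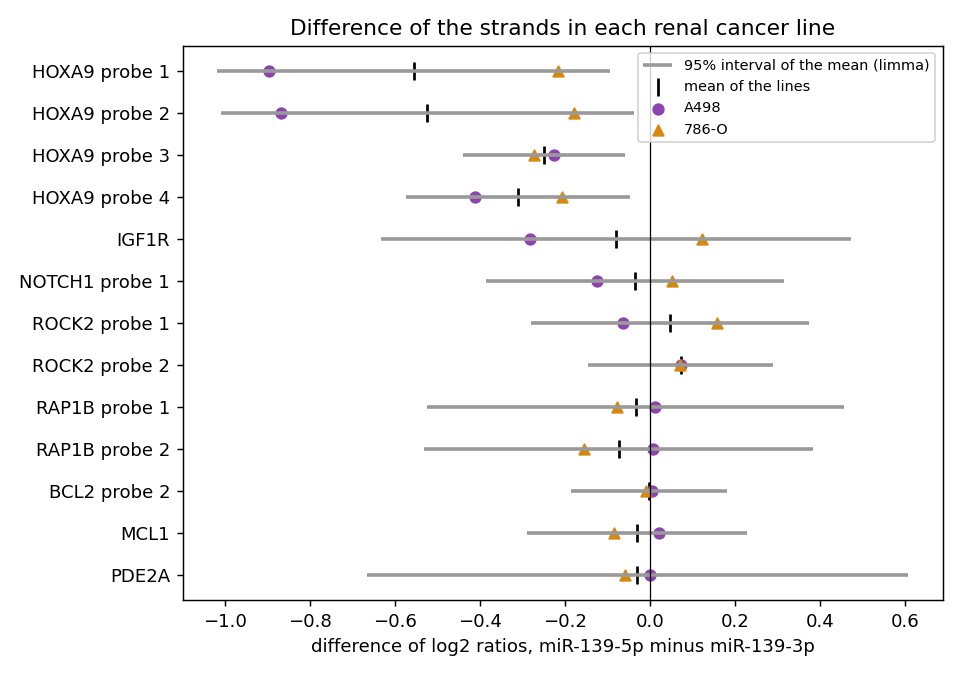
Difference of log2 ratios, miR-139-5p minus miR-139-3p (x axis), for the 13 target gene probes that could be tested; purple circles are A498, orange triangles 786-O, the black tick is their mean and the grey bar its 95% interval from limma without adjustment for the number of probes. The intervals of the 4 HOXA9 probes lie below 0 and those of the other 9 probes include it.

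The other 9 probes tested had mean differences of the strands between -0.079 and 0.072. Their unadjusted p in limma was 0.43 or more and their adjusted p 0.9999. Their intervals all included 0 and differed in width, from -0.18 to 0.18 at BCL2 probe 2 to -0.67 to 0.61 at PDE2A. PDE2A had the widest interval although its ratios on the miR-139 arrays lay between -0.047 and 0.039, and its siRNA ratios were -0.087 and 0.66.

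IGF1R is the tyrosine kinase receptor for IGF1 and IGF2. Its log2 ratio was -0.22 after miR-139-5p and 0.065 after miR-139-3p in A498, and 0.062 and -0.063 in 786-O. The lines thus went opposite ways, with a difference of the strands of -0.28 in A498 and 0.12 in 786-O (mean -0.079, 95% interval -0.63 to 0.47, limma adjusted p = 0.9999). With median centring the 786-O value was -0.020, so the opposite direction of the lines depended on the scaling. The mock level was 8.04 and 8.09 in 786-O, 7.62 and 7.52 in A498, 7.03 and 7.07 in MDA-MB-231 and 6.57 and 6.55 in HCT116. The lines did not overlap in that order, and the highest was 2.84-fold above the lowest.

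NOTCH1 is a receptor whose cleaved intracellular part acts in the nucleus. Probe 1 had ratios of 0.025 after miR-139-5p and 0.15 after miR-139-3p in A498, and of 0.028 and -0.025 in 786-O. The mean difference of the strands was -0.036 (-0.39 to 0.32), and its sign in each line turned with median centring. Probe 2 gave 0.045 and -0.13 in A498 and was too dim in 786-O for the test. The mock level of probe 1 was highest in 786-O (7.25 and 7.32) and lowest in MDA-MB-231 (6.91 and 6.92), 1.29-fold apart, and 786-O and HCT116 overlapped.

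ROCK2, a kinase that drives actomyosin contraction, had ratios at probe 1 of -0.18 after miR-139-5p and -0.12 after miR-139-3p in A498, and of 0.10 and -0.056 in 786-O. Probe 2 had 0.040 and -0.035 in A498, and 0.027 and -0.043 in 786-O. Both 5p values of probe 2 lay above both 3p values, as for 3757 of 22174 probes tested (16.9%), with a mean difference of 0.072 (-0.14 to 0.29). Probe 1 gave 0.047 (-0.28 to 0.37). The mock level of probe 1 spanned 1.32-fold over the lines, from 6.97 and 7.02 in 786-O to 7.43 and 7.36 in MDA-MB-231, which overlapped HCT116.

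RAP1B, a small GTPase of integrin adhesion and cell junctions, was above mock with both strands in both lines. The miR-139-5p mean of 0.10 at probe 1 turned to -0.26 once the mean of the arrays without miR-139 was subtracted. Those arrays held other transfections, with RAP1B ratios from -0.22 to 0.75, so a dye effect cannot be told apart from theirs. Probe 1 had 0.12 after miR-139-5p and 0.11 after miR-139-3p in A498, and 0.080 and 0.16 in 786-O. Probe 2, which overlaps it by position, had 0.14 and 0.13, and 0.041 and 0.20. The mean difference of the strands was -0.034 at probe 1 (-0.53 to 0.46) and -0.074 at probe 2 (-0.53 to 0.38). With median centring the lines went opposite ways by more, at 0.29 in A498 and -0.29 in 786-O for probe 1, and at 0.27 and -0.35 for probe 2. In A498 the mock level of probe 1 was 11.69 and 11.72, followed by 786-O with 11.13 and 11.13, then 10.56 and 10.59 in MDA-MB-231 and 10.04 and 10.07 in HCT116, with no overlap and a 3.14-fold range. Its largest ratios were in HCT116, 0.75 for miR-490-5p and 0.57 for the 3p strand.

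BCL2 and MCL1 are anti-apoptotic proteins that hold back the effectors of mitochondrial cell death. BCL2 was dim in every line: its probe 1 lay between 5.90 and 6.23 in mock cells of A498, MDA-MB-231 and HCT116 and was not above background in 786-O. In A498 that probe had ratios of -0.059 after miR-139-5p and -0.048 after miR-139-3p. Probe 2 could be tested and had a mean difference of -0.0011 (-0.18 to 0.18). At that brightness a ratio is compressed toward 0 by the offset of 50 that was added to every intensity, so a small value says little about the transcript. The same holds for other dim probes, such as ROCK2 probe 2, at 6.08 to 6.21 in mock cells of the renal lines.

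MCL1 was below mock on all 4 miR-139 arrays, at -0.18 after miR-139-5p and -0.20 after miR-139-3p in A498, while 786-O had -0.16 and -0.072. The values of the strands overlapped. Against mock the mean was -0.17 for miR-139-5p (95% interval -0.35 to 0.012, unadjusted p = 0.062, limma adjusted p = 0.9999) and -0.14 for miR-139-3p (unadjusted p = 0.11). With median centring 1 of the strands turned above 0 in each line, at 0.096 for miR-139-5p in A498 and 0.041 for miR-139-3p in 786-O. Both values lay below the median of all genes on that scale, which was 0.14 and 0.072 on these arrays. The difference of the strands was -0.031 (-0.29 to 0.23). MCL1 mock levels spanned 1.47-fold, from 7.43 and 7.56 in HCT116 to 7.996 and 8.11 in A498, and MDA-MB-231 and 786-O overlapped.

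PDE2A breaks down cAMP and cGMP, and its intron gives rise to miR-139. Its ratio was 0.039 with either strand in A498, and -0.047 after miR-139-5p and 0.013 after miR-139-3p in 786-O. The transcript of the host gene thus stayed near mock with both strands, with a mean difference of -0.030 (-0.67 to 0.61). Its mock level was above background in all 4 lines, at 7.35 and 7.22 in A498, 6.92 and 7.04 in HCT116, 6.66 and 6.77 in MDA-MB-231 and 6.59 and 6.64 in 786-O. The largest PDE2A ratio of the series was 0.66 with siRNA 2 in MDA-MB-231, where siRNA 1 gave -0.087.

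**Figure D3:**
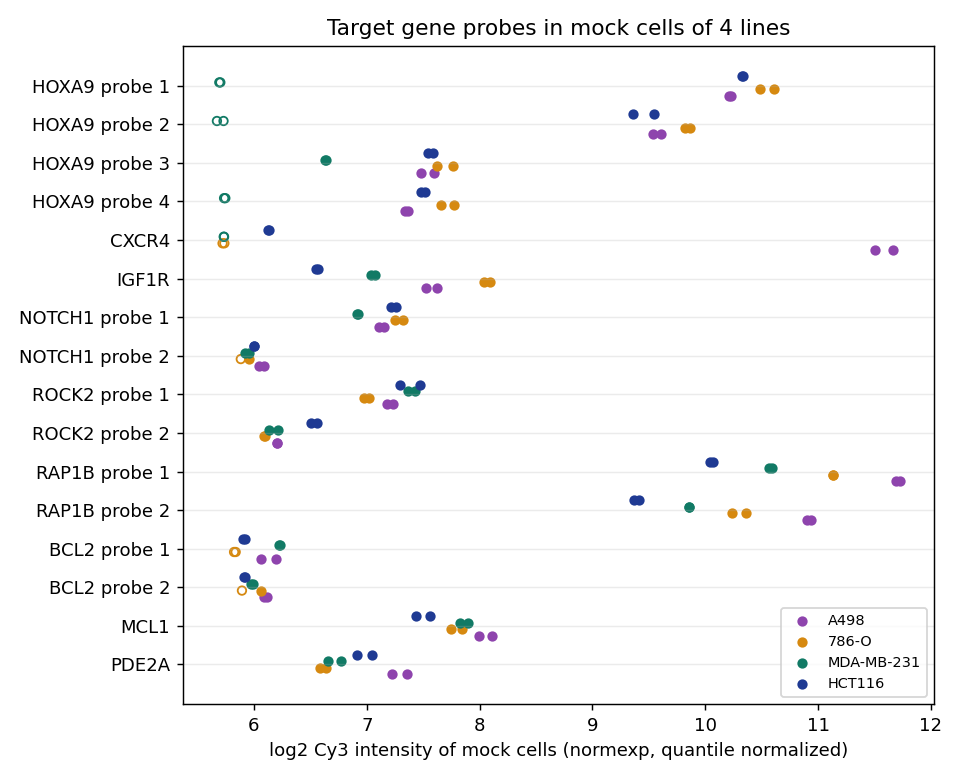
Log2 Cy3 intensity of mock cells (x axis; normexp, then quantile normalized over the 8 arrays) for the 16 probes, 2 arrays per line; open points were not well above background. CXCR4 is bright in A498 alone, and HOXA9 probes 1, 2 and 4 are above background in A498, 786-O and HCT116 but not in MDA-MB-231. Levels compare lines within a probe and not 1 probe with another.

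Taking the brightest probe of each gene, the median difference of the strands was -0.011 over the 9 target genes in A498, against 0.00057 over all genes measured, with 5 of 9 below 0 where 49.8% of all genes were. In 786-O it was -0.059 over the 7 target genes measured, against -0.0034, with 4 of 7 below 0 where 51.8% of all genes were. Of all genes 1.05% in A498 and 0.0164% in 786-O had a difference at or below -0.5, and HOXA9 in A498 was the only target gene at that size. For miR-139-5p over mock the median of the target genes was -0.059 in A498 and 0.061 in 786-O, against 0.0070 and 0.0012 over all genes. In A498 5 of 9 target genes were below 0, where 47.0% of all genes were. In 786-O it was 2 of 7, against 49.4%. No brightest probe was at or below -0.5 in either line, a size reached by 0.525% of all genes in A498 and 0.0791% in 786-O. HOXA9 probe 2 in A498, a dimmer probe, was below it.

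The lines differed in how far all genes spread. The standard deviation of the difference of the strands over all genes was 0.21 in A498 and 0.094 in 786-O. A difference of -0.22, that of HOXA9 probe 1 in 786-O, lay below the 5th percentile of that line (-0.15), and -0.90 lay below the 5th percentile of A498 (-0.30).

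The probe sequences were searched for the reverse complement of the miR-139-5p seed. A probe is 60 bases of the transcript's sense strand and covers only a small part of it, so a transcript can have sites that no probe holds. No target gene probe held ACTGTAG (bases 2 to 8) or CTGTAGA (bases 2 to 7 with an A opposite base 1), which 0.32% and 0.376% of the 58201 probes did. CTGTAG alone (bases 2 to 7, contained in both) was in 774 probes (1.33%), among them HOXA9 probe 1 at bases 24 to 29, shown with 10 bases on each side. The CXCR4 probe held the letters of the seed itself, CTACAGT, at bases 42 to 48, which is the opposite strand and no pairing site; 247 probes (0.424%) held it.
HOXA9 probe 1: gagtatagctCTGTAGtggaatatgt
CXCR4 probe: tttcagcacCTACAGTgtacagtctt

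Over the 304 tested probes with CTGTAG the median difference of the strands was -0.012 in A498 and -0.011 in 786-O, against 0.0039 and -0.0028 over all tested probes. Over the 76 tested probes with ACTGTAG it was 0.027 and -0.025. These are descriptions of the probe windows alone.

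The pathway partners of the target genes numbered 100 in 8 lists, of which 70 could be tested for the difference of the strands. limma called 0 of them in any of the 3 comparisons, and 31 of 70 lay below 0 where 50.2% of all 17075 genes tested did. In the HOXA cluster and its cofactors MEIS1 and PBX3, 8 of 11 tested genes were below 0, with a median of -0.028. HOXA11 was the lowest, at -0.45 after miR-139-5p and 0.20 after miR-139-3p in A498 and -0.019 and 0.019 in 786-O. Both 5p values lay below both 3p values for HOXA11, HOXA4 and HOXA5, and above them for HOXA3, the highest of the list. Over all 22174 probes tested the shares were 17.1% below and 16.9% above. Of the 70 partner genes tested, 11 were below and 15 above. HOXA4 had a difference of the strands of -0.14 in A498 and -0.11 in 786-O, and HOXA5 one of -0.15 and -0.11. HOXA3 had 0.34 and 0.0094. The difference had opposite signs in the lines for 6 of the 11 genes, HOXA7 (-0.44 and 0.047) among them. HOXA10, the neighbour of HOXA9, had probes that disagreed: the brighter gave -0.20 in A498 and 0.20 in 786-O, and the other gave -0.40 and -0.095.

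In the IGF axis 1 of 8 tested genes was below 0 (median 0.11), INSR, the insulin receptor, at -0.0056. IGFBP3, a secreted carrier of IGFs, had the highest difference of the axis, with 0.10 after miR-139-5p and -0.72 after miR-139-3p in A498 and -0.040 and -0.31 in 786-O (mean 0.55, 95% interval -0.35 to 1.45, adjusted p = 0.9999). Of the CXCL12 axis only ACKR3, the scavenging receptor of CXCL12, could be tested. In A498 it stood at -0.24 after miR-139-5p and -0.88 after miR-139-3p, the same order as CXCR4 there, and in 786-O at -0.12 and -0.18.

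The RAP1 pathway had 3 of 9 below 0 (median 0.021), from SIPA1, a GTPase activator of RAP1, at -0.027 to RAP1A at 0.14. In the Notch pathway 7 of 13 were below 0 (median -0.026), from the γ-secretase subunit APH1A at -0.14 to NOTCH2 at 0.27. In the BCL2 family 4 of 12 were below 0 (median 0.062), from BMF at -0.15 to PMAIP1 at 0.27, both BH3-only proteins. Among cyclic nucleotide phosphodiesterases 3 of 5 were below 0 (median -0.017). PDE4A, which breaks down cAMP, was the lowest there at -0.42 (95% interval -0.77 to -0.075, unadjusted p = 0.026, limma adjusted p = 0.9999), and PDE9A the highest at 0.14. PDE4A had -0.44 after miR-139-5p and 0.22 after miR-139-3p in A498, and -0.22 and -0.040 in 786-O.

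**Figure D4:**
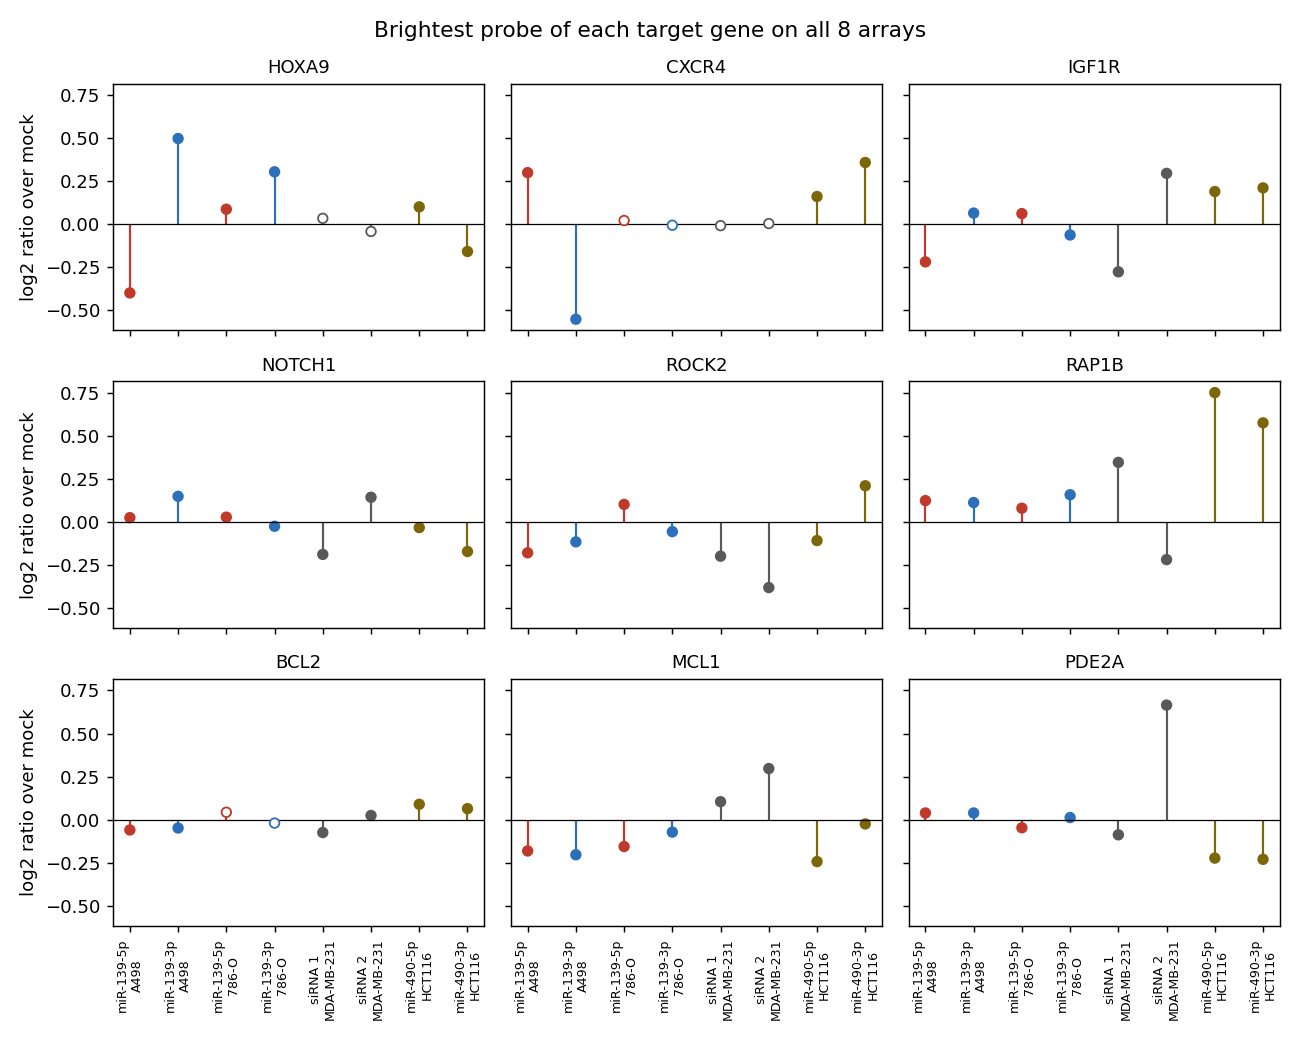
Log2 ratio of transfected over mock cells (y axis) of the brightest probe of each target gene on all 8 arrays (x axis), red for miR-139-5p, blue for miR-139-3p, grey for the siRNAs against GINS1 and brown for the miR-490 strands; open points were not well above background in either channel. RAP1B reaches 0.75 and 0.57 with the miR-490 strands and PDE2A 0.66 with siRNA 2, each beyond that gene's values on the 4 miR-139 arrays.

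At their brightest probe, 7 of the 9 target genes had their ratio furthest from 0 on one of the 4 arrays without miR-139. Besides RAP1B and PDE2A, ROCK2 stood at -0.38 and MCL1 at 0.30 with siRNA 2, and IGF1R at 0.29 with siRNA 2. For ROCK2, MCL1 and IGF1R siRNA 1 gave -0.20, 0.10 and -0.28, so that IGF1R went opposite ways with the siRNAs. NOTCH1 was furthest from 0 with siRNA 1 (-0.19) and BCL2 with miR-490-5p (0.090). HOXA9 and CXCR4 had their ratio furthest from 0 on the A498 array of miR-139-3p.

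For the 6 target genes well above background on all 8 arrays, the gene with the most similar ratios among genes whose ratios had an SD of at least 0.2 was, by Pearson r over the 8 arrays, MGAT5 for IGF1R (0.97), PNN for ROCK2 (0.94), RPGR for NOTCH1 (0.94), TMEM55A for RAP1B (0.99), RIOK2 for MCL1 (0.97) and POLG2 for PDE2A (0.99). Each was the highest of 7152 or 7153 candidates, and the arrays of 1 line share mock RNA or its source, so these values are descriptions.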

How the data were processed

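Per the labels, RNA was extracted with Trizol, amplified and labelled with an Agilent two-colour kit, and per the file headers arrays were scanned with Feature Extraction 11.5.1.1 and annotated on hg19. The authors deposited each spot's mean signal and background as intensity on a linear scale, and the scanner's ratio as log10 of Cy5 over Cy3; the latter, converted to log2, was used only as an alternative. All arrays came from 1 slide scanned together.

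Intensities were background corrected (normexp, offset 50) and normalized by loess within each array with control spots at weight 0. Spots marked as outliers were left out and spots of a probe averaged. limma 3.58.1 (R 4.3.3) fitted all 8 arrays with 5 group coefficients (3 residual degrees of freedom), so the miR-139 groups borrowed the spread of the other transfections. A probe entered a comparison when every array of it had the probe well above background in Cy3, Cy5 or both, and Benjamini-Hochberg adjustment covered all such probes. The fit was tested on simulated data. Within a line, with 1 array per strand, values were not tested and a log2 size of 0.5 was used. Mock levels are Cy3 signals, quantile normalized over the 8 arrays. A gene's brightest probe stands for it in counts of genes.

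All 9 genes and every probe of them are named. From each partner list the lowest and highest tested genes are named, except for 1 list that is counted in the totals but not reported here, with HOXA4, HOXA5, HOXA7 and HOXA10 added after their values were seen. The genes and lists were chosen with earlier results of these data known. Replicate numbers pair arrays by cell line; deviations of same-line arrays had a correlation of 0.0753 over 22174 probes. Alternatives covered background correction, normalization, the filter, the arrays fitted, the prior, dye bias, the replicate block and leaving out each array. For dye bias, the mean ratio of the arrays without miR-139 was subtracted, which also carries the effects of their transfections. The number of arrays limits the precision.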

Additional observations from a re-analysis of the deposited data

Results flagged for a closer look

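The difference of the strands (miR-139-5p minus miR-139-3p) had opposite signs in A498 and 786-O for 6 of the 7 target genes measured in both lines. This was at the brightest probe, and BCL2 and CXCR4 were too dim in 786-O to count. Of the 70 partner genes tested 32 had opposite signs, and the share over all genes is not given here. In A498 the difference was 0.022 for MCL1, 0.011 for RAP1B and 0.0002 for PDE2A, so close to 0 that its sign there says little. With median centring IGF1R (-0.11 and -0.020) and ROCK2 (0.087 and 0.073) had the same sign in both lines. With the scanner's log ratios PDE2A did (-0.0057 and -0.18). There was 1 value per line, so that the gap between the lines was not tested. On the log2 scale A498 minus 786-O came to -0.407 for IGF1R, -0.2212 for ROCK2, -0.1767 for NOTCH1, 0.1056 for MCL1, 0.0895 for RAP1B and 0.0593 for PDE2A. Among the partner genes it came to 0.4314 for APH1A, 0.0845 for SIPA1, -0.099 for INSR, -0.3988 for HOXA10 and -0.4909 for HOXA7. The other tested HOXA10 probe had the same sign in both lines. For comparison, the standard deviation of the difference of the strands over all genes was 0.21 in A498 and 0.094 in 786-O.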

How the results depend on the processing

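No setting called a target gene or any probe for the difference of the strands, the replicate block (cell line as block, 0 probes) included. For miR-139-5p against mock, the 3 calls became 6 with an offset of 10, 7 with the scanner's log ratios and 5 with only the 4 miR-139 arrays. They became 0 with median centring, no filter, a filter on both channels, a trended robust prior or the dye bias setting, and also without either array. For miR-139-3p, the 0 calls became 6 with an offset of 10, 4 without background correction, 13 with scanner ratios and 6 with only the 4 arrays. The median over the target genes of the difference of the strands, averaged over the lines, moved from -0.035 to 0.0080 with no filter on dim probes. The causes were not tested.

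Of 174 single-gene values under alternatives, 157 kept their direction and call and 17 turned. With median centring, miR-139-5p against mock turned to 0.034 (IGF1R), 0.060 (ROCK2), 0.051 (HOXA9) and 0.11 (PDE2A), and the difference of the strands to 0.0018 (MCL1) and 0.026 (PDE2A). On that scale the median of all genes with miR-139-5p was 0.14 in A498 and -0.0014 in 786-O, so 0 was not the typical gene in A498. With the mean of the arrays without miR-139 subtracted, miR-139-5p against mock turned to 0.081 for ROCK2 and -0.26 for RAP1B. Leaving out each array in turn, miR-139-5p against mock ran from -0.22 to 0.062 (IGF1R), -0.18 to 0.10 (ROCK2) and -0.40 to 0.087 (HOXA9), above 0 without A498, and from -0.047 to 0.039 (PDE2A), above 0 without 786-O. The difference of the strands ran from -0.22 to 0.060 for IGF1R (above 0 without miR-139-5p in A498), -0.093 to 0.19 for ROCK2 (below 0 without miR-139-5p in 786-O), -0.12 to 0.051 for NOTCH1 (above 0 without miR-139-3p in A498), -0.096 to 0.035 for MCL1 (above 0 without miR-139-3p in 786-O) and -0.072 to 0.014 for PDE2A (above 0 without miR-139-5p in 786-O). The HOXA9 difference stayed below 0 in every setting, from -0.31 (without miR-139-5p in A498) to -0.80 (without it in 786-O). Dim probes, such as those of BCL2, limit what these arrays can show.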
